A study of Mus musculus with 16 samples.

Results

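The integrated stress response is followed here through the transcripts of 10 genes of its ATF4 branch, in mouse leukemia cells with and without YBX1. The genes were named by symbol: Atf4, Atf5, Ddit3, Ddit4, Ppp1r15a, Trib3, Asns, Chac1, Sesn2 and Slc7a11. All 10 were found among the 21177 genes of the deposited table, and each was read from the interval with the highest mean CPM (read count scaled to library size). Of the 10, 6 had a rate above 0 in at least 12 of the 16 libraries and were among the 7411 genes tested: Atf4, Atf5, Ddit3, Trib3, Asns and Slc7a11. Ddit4 (11 libraries), Sesn2 (10), Ppp1r15a (9) and Chac1 (6) were below that limit and are given by their values.

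The samples were leukemia cells of the YBX1-/- and WT genotypes, with bone marrow as tissue and C57BL/6 as strain per the labels. All were labelled with 50 µM 4-thiouridine (4sU) for 24 h and chased in medium with 10 mM uridine. RNA was taken after 0, 0.5, 1, 3, 6, 12, 18 and 24 h, with 1 library for each genotype and time. In SLAM-seq, RNA made during labelling is recognised by T-to-C changes in the reads, and the T-to-C rate is the deposited share of converted signal in an interval. The sources used here do not say how YBX1 was deleted, how the leukemia was raised or how old the mice were.

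In the integrated stress response, kinases that sense amino acid shortage, misfolded protein, heme shortage or double-stranded RNA phosphorylate the initiation factor eIF2. General translation then falls, while mRNAs with upstream open reading frames such as Atf4 are translated better. ATF4 is a bZIP transcription factor that switches on genes of amino acid uptake and synthesis, redox defence and feedback. In blood cells the pathway is known for its part in the survival of stem and leukemia cells under nutrient and protein stress. Because output depends on rapid changes in mRNA, many of its transcripts are known as short-lived.

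All 10 intervals lay in 3' UTRs, past the last coding base, and they differed widely in size and T content. Coordinates are in the mouse build GRCm38, counted from 1, as chromosome, start and end. Atf4 (ENSMUSG00000042406, + strand) was read at chr15:80257461-80257541, 81 bases of which 43.2% were T. Ppp1r15a (ENSMUSG00000040435, - strand) was read at chr7:45522916-45522992, 77 bases with 45.5% T. Slc7a11 (ENSMUSG00000027737, - strand) was read at chr3:50364938-50372301, the longest of the 10 at 7364 bases, with 32.2% T. The other 7 had 22.3% to 26.9% T, against a median of 29.3% over the tested genes. They were Atf5 at chr7:44812256-44812846 (- strand), Ddit3 at chr10:127296092-127296288 (+), Ddit4 at chr10:59949669-59950535 (-), Trib3 at chr2:152337422-152338206 (-), Asns at chr6:7675169-7675314 (-), Chac1 at chr2:119353591-119354381 (+) and Sesn2 at chr4:132492032-132493715 (-).

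These intervals were searched on the transcript strand for letters known from RNA turnover. TATTTAT is a longer form of ATTTA, the core of AU-rich elements, and TGTANATA is bound by Pumilio proteins. GGACT is a common sequence at m6A sites, the mark named in the series title. The stretches below show examples of TATTTAT, TGTANATA and GGACT, for the first match in the interval. Each is 30 bases of a GENCODE M21 transcript (GRCm38), with the searched letters in capitals.
Ppp1r15a, TATTTAT: tagtttcctatTATTTATttatttatttat
Chac1, TATTTAT: acttgaaccttTATTTATtgcaccatgttg
Atf4, TGTANATA: tgctttgtgctTGTACATAgtcttgtgttg
Ddit3, GGACT: atgctgaggaggGGACTgagggtagaccag
Ppp1r15a held 4 overlapping copies of TATTTAT in its 77 bases, while 1.1% of 87 tested intervals of like length held any. Chac1 held 1, as did 18.2% of 1014 intervals of like length. ATTTA itself was in Ppp1r15a (4 matches, and in 10.3% of like intervals), Slc7a11 (11, 99.4%), Sesn2 (1, 87.2%), Chac1 (1, 65.7%) and Atf5 (1, 55.4%). The 81 bases of Atf4 held 1 match of TGTANATA, as did 7.7% of 104 like intervals, and none of TATTTAT or GGACT. Slc7a11 held 3 matches of TGTANATA, and 76.1% of 155 like intervals held at least 1. Ddit3 held 1 match of GGACT, and 21.8% of 409 like intervals held at least 1. GGACT was also in Sesn2 (5 matches, and at least 1 in 78.8% of 1255 like intervals), Slc7a11 (3) and Ddit4 (2). Atf5, Trib3 and Chac1 held 1 each, so GGACT was in 7 of the 10. Of intervals of like length, 99.4% held it for Slc7a11, 58.7% for Ddit4, 51.9% for Atf5, 58.1% for Trib3 and 58.6% for Chac1. The share was 6.7% for Atf4, 4.6% for Ppp1r15a and 14.4% for Asns, which held none. Asns held no match of any of the searched letters. The stretches lay at chr7:45522956-45522985 (- strand), chr2:119353773-119353802 (+), chr15:80257474-80257503 (+) and chr10:127296183-127296212 (+) in the order printed. A match is a description of the letters, not of binding or methylation.

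The members are best known as targets of ATF4, which pairs with C/EBP proteins on elements with the core TGATGNAA. This core was searched on both strands of the RefSeq promoter windows of GRCm38.p6, from 250 bases before to 50 after each start. It was present in 4 of the 11 windows of the 10 genes, those of Chac1, Trib3, Slc7a11 and Asns, against 3.97% of all 32851 windows. The matches are shown because they mark the members with this element close to the start, with the 8 searched letters in capitals (on the gene's strand, either way round).
Chac1: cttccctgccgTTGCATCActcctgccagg
Trib3: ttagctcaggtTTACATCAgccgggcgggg
Slc7a11, outer match: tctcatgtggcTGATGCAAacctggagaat
Slc7a11, inner match: acctggagaatTTGCATCAtcatgcagccc
Asns: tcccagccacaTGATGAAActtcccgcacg
They lie at chr2:119351038-119351067 (+ strand), chr2:152344028-152344057 (-), chr3:50443661-50443690 (-), chr3:50443642-50443671 (-) and chr6:7693214-7693243 (-). The rates measured here do not report on promoters.

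Coverage set how firmly each member could be read. The authors' mean over libraries was 22.7 CPM for Slc7a11, 12.7 for Ddit3, 12.1 for Atf4, 9.33 for Asns and 7.33 for Atf5, where the median tested gene had 10.4. It was 4.30 CPM for Sesn2, 2.78 for Trib3, 1.63 for Chac1, 1.57 for Ddit4 and 0.321 for Ppp1r15a. Depth per library is unknown, so no interval is given for a rate, and an exact 0 can mean no reads or no converted reads. In Ppp1r15a, Ddit4 and Trib3 single rates jumped between neighbouring times. As a check of the labelled tissue, all 14 myeloid leukemia markers had a mean above 1 CPM, led by Lyz2 with 7380 CPM. Of the other markers, 2 of 8 erythroid (highest Hbb-bt, 1.34 CPM), 2 of 9 lymphoid (Cd79b, 7.39), 1 of 7 stromal and endothelial (Pecam1, 4.6) and 4 of 5 megakaryocyte genes (Pf4, 39.8) passed that level. These means pool both genotypes, so their part in a difference was not tested. One library differs from its neighbours: the rates of YBX1-/- at 0 h correlated across genes with those of the remaining early libraries (0 to 1 h) at a mean r of 0.279, where each of the others reached 0.428 to 0.551. In that library 3.64% of tested genes were listed at 0, against 0.0405% to 0.405% in the other early libraries. Ybx1 carried label in both genotypes, with 72.0% at 0 h in YBX1-/- and 55.2% in WT, which does not check the deletion because a rate is no amount.

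Atf4, the transcription factor at the centre of the response, lost its label early and kept a low level late. The series of rates in YBX1-/- cells was 53.8%, 34.2%, 19.9%, 6.72%, 2.83%, 2.41%, 2.50% and 1.75% from 0 to 24 h. The series in WT cells was 32.1%, 36.6%, 27.6%, 8.36%, 4.33%, 2.23%, 2.29% and 3.03%. Both genotypes were low from 6 h on, but above the median tested gene at 12, 18 and 24 h. That median was 1.75%, 1.32% and 0.768% in YBX1-/- and 2.17%, 1.14% and 0.847% in WT. Beside WT, the Atf4 rate in YBX1-/- was higher at 0, 12 and 18 h and lower at the other 5 times. The 0 h value in YBX1-/- comes from the library that differs from its neighbours. In bulk RNA a rate is a mean over cells, so a small shift in all cells and a large one in a few cannot be told apart.

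Atf4 kept less of its early label at 3 h than most tested genes did in both genotypes. At 3 h the rate was 18.7% of the 0 to 1 h mean in YBX1-/-, where the median tested gene kept 54.7%, and 5.17% of tested genes kept as little. In WT it was 26.0%, where the median gene kept 45.0%, and 21.5% of tested genes kept as little. With the 0 h libraries left out of the early mean, the shares were 24.8% in YBX1-/- and 26.0% in WT. Most of the gap between the shares thus came with the YBX1-/- 0 h library. The median gene then kept 55.4% in YBX1-/- and 44.2% in WT. As little as Atf4 was kept by 9.2% of tested genes in YBX1-/- and 22.0% in WT.

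A straight line over 0 to 24 h on the log2 scale gave Atf4 a half-life of label of 5.72 h in YBX1-/- and 6.34 h in WT. Both were long beside the median gene (4.06 h and 3.72 h). The line takes in the late rates, and its order against the median gene turned with the window. Over 0 to 24 h the slope of Atf4 was -0.17 log2 per h in YBX1-/- and -0.16 in WT, with -0.25 and -0.27 for the median gene. Over 0 to 6 h it was -0.68 and -0.54, with -0.47 and -0.39 for the median gene. The cause of this turn was not tested. A fit of an exponential with a constant floor gave 0.683 h in YBX1-/- (0.662 to 0.757 with each chase time left out) and 1.71 h in WT (1.03 to 2.22). The floors were 2.61% and 1.89%. The ranges of the genotypes did not overlap, with the shorter half-life in YBX1-/-. The same was seen in 12.2% of all tested genes, and in 1 of the 6 tested members, so a share of this size does not set the members apart. No tested member had ranges apart in the other direction, which 8.43% of all tested genes had. The library medians fitted in this way had 2.66 h in YBX1-/- and 2.76 h in WT. A range with each chase time left out is not an error interval. The decay rate difference of Atf4 (YBX1-/- minus WT) was -0.037 log2 per h (SE 0.025, limma, adjusted p = 0.599). Over 0 to 6 h it was -0.05 (SE 0.14, adjusted p = 0.880).

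Atf5, a close relative of ATF4 that acts in the mitochondrial stress response, held its label longer than Atf4 over the first hours. Its rate in YBX1-/- was 32.6%, 35.1%, 33.3%, 19.5%, 7.30%, 1.85%, 0.971% and 1.42% from 0 to 24 h. In WT it was 43.8%, 35.7%, 37.1%, 32.4%, 10.4%, 4.00%, 7.69% and 0%. The rate was lower in YBX1-/- at each of the 7 times up to 18 h and higher at 24 h, where WT was listed at 0. At 3 h Atf5 kept 57.9% of its early rate in YBX1-/-, close to the median gene. In WT it kept 83.2%, and 92.1% of tested genes kept as much or less. With a constant floor the half-lives were 3.15 h in YBX1-/- (2.52 to 3.61) and 3.86 h in WT (2.65 to 5.19), and the ranges overlapped. The straight line put them in the other order, at 4.44 h and 3.40 h, with the WT value of 0 at 24 h in it.

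Ddit3, which encodes CHOP, the bZIP factor linked to cell death under lasting stress, carried the least early label of the 10 in both genotypes by its mean over 0 to 1 h. Its rate in YBX1-/- was 11.8%, 14.1%, 8.70%, 4.68%, 1.59%, 0.781%, 0.917% and 0.279% from 0 to 24 h. In WT it was 21.8%, 17.0%, 12.5%, 10.5%, 5.68%, 2.56%, 3.36% and 1.98%. YBX1-/- was lower at 8 of 8 times. Of all tested genes, 5.79% were lower at every time, and Ddit3 was the one member of the 6 tested. The mean over 0 to 1 h was 11.5% in YBX1-/- and 17.1% in WT, at or below which lay 1.97% and 1.92% of tested genes. With the 0 h libraries left out it was 11.4% and 14.8%, where Ddit4 in WT had 14.3%.

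The lower level of Ddit3 label in YBX1-/- did not pass the test across genes. With each library's median subtracted, the labelling level difference (YBX1-/- minus WT, over all times) was -0.95 log2 (SE 0.43; limma, unadjusted p = 0.0497, adjusted p = 0.779), lower at 6 of 8 times. Of all tested genes, 0.688% were lower at 8 of 8 times on that scale, and no tested member was. The share of genes lower at 6 of 8 times was not counted. Without the YBX1-/- 0 h library the difference was -1.02. Exchange of the genotypes within times gave p = 0.03125 (exact permutation test, two-sided, smallest possible 0.0078125), and 0.64 adjusted over all tested genes. The decay rate difference was -0.09 log2 per h (SE 0.041; limma, unadjusted p = 0.0514, adjusted p = 0.401), where a negative value means faster loss of label in YBX1-/-. With a constant floor the half-lives were 1.97 h in YBX1-/- (1.23 to 2.09) and 2.02 h in WT (1.14 to 2.81), and the floor was 0.463% and 2.77%. The straight line gave 4.93 h in YBX1-/- and 7.61 h in WT.

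The Ddit3 interval overlaps another gene on the opposite strand, so reads there could come from either gene if strand was not used. The 3' end of Mars, a methionyl-tRNA synthetase gene that is itself a known ATF4 target, covers 68 of the 197 bases (34.5%, chr10:127296221-127296288). The Mars interval itself (chr10:127296221-127296293, - strand) shares those 68 of its 73 bases. Mars also carried little label, with 15.4%, 16.2% and 7.74% at 0, 0.5 and 1 h in YBX1-/- and 5.11%, 23.2% and 25.4% in WT. Among tested genes, 572 had an exon of an opposite-strand gene over at least 25% of the interval, and their median 0 to 1 h rate was 27.9% in YBX1-/- and 38.2% in WT. The 6396 with none had 34.1% and 46.0%. The early rate of Ddit3 was below the lower quartile of the overlapped intervals as well (18.3% in YBX1-/- and 24.6% in WT). The sources used here do not say whether strand was used in counting, and the part of the overlap in the Ddit3 result was not tested. Ppp1r15a shares 12 of its 77 bases (15.6%) with an exon of Tulp2 in the same way.

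**Figure D1:**
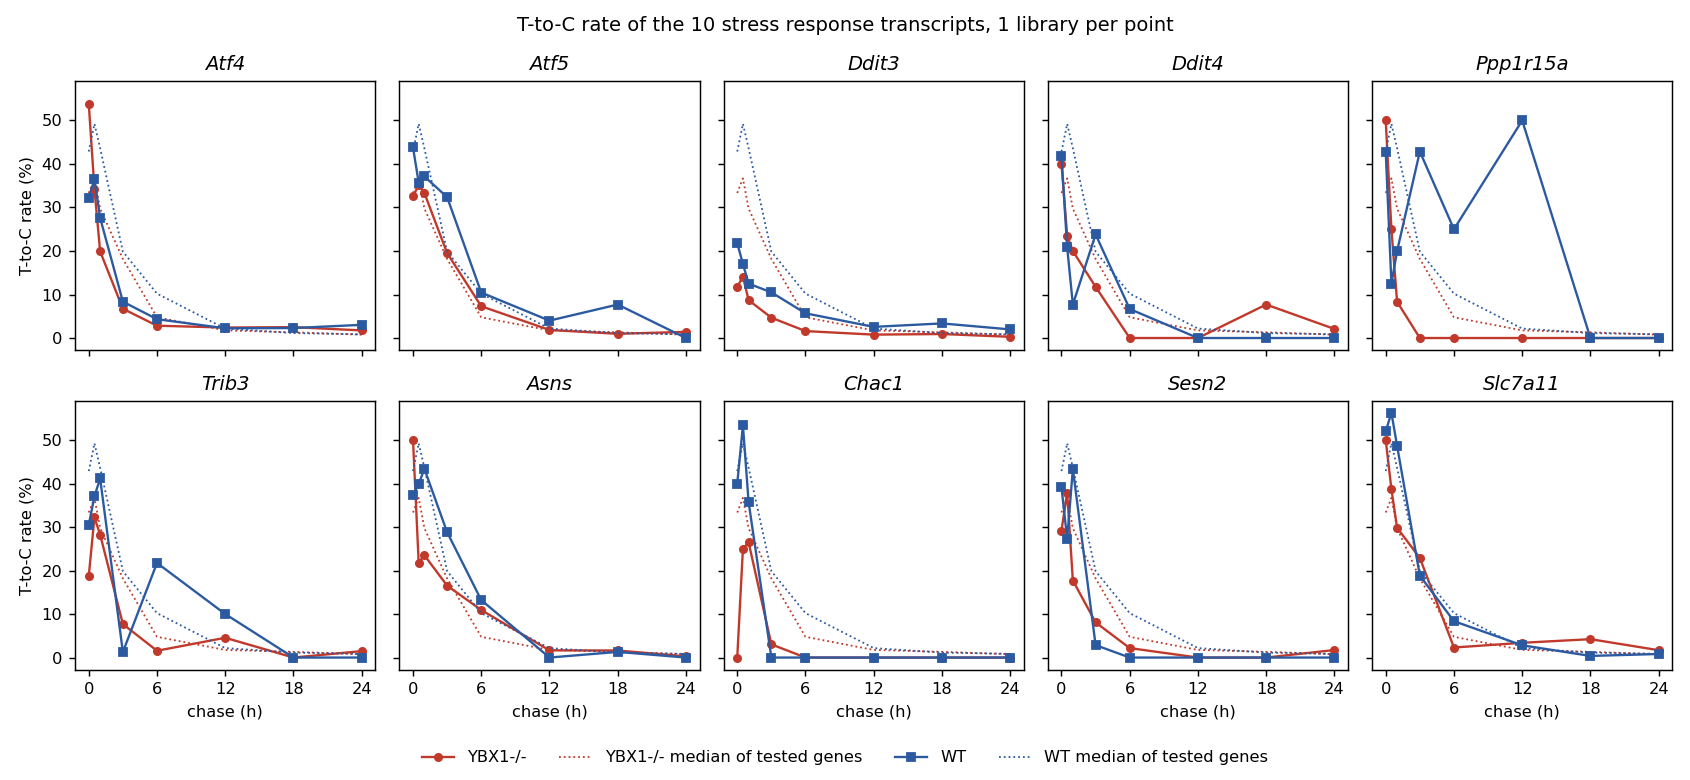
T-to-C rate in percent (y) against hours of chase (x) for each of the 10 genes, with YBX1-/- as red circles, WT as blue squares and 1 library per point, and dotted lines for the median of the tested genes in the same libraries. Atf4 lies below the medians from 1 h to 6 h in both genotypes, Ddit3 lies below them up to 6 h in both genotypes and is lower in YBX1-/- at all 8 times, and Ppp1r15a in WT jumps to 50.0% at 12 h.

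Slc7a11, the cystine transporter that supplies glutathione synthesis, had the highest mean rate over 0 to 1 h of the 10 in both genotypes (39.5% in YBX1-/- and 52.3% in WT). Without the 0 h libraries its lead in YBX1-/- was slight, 34.3% against 34.2% for Atf5. Its rate in YBX1-/- was 50.0%, 38.7%, 29.8%, 22.9%, 2.30%, 3.39%, 4.23% and 1.69% from 0 to 24 h. In WT it was 52.0%, 56.2%, 48.7%, 18.8%, 8.35%, 2.82%, 0.373% and 0.816%. YBX1-/- was lower at 0, 0.5, 1 and 6 h and higher at 3 h and at the 3 times from 12 h on. The decay rate difference was 0.08 log2 per h (SE 0.036; limma, unadjusted p = 0.0427, adjusted p = 0.370), where a positive value means slower loss in YBX1-/-. An unadjusted p of this kind was reached by 12.5% of tested genes, and over 0 to 6 h the sign turned to -0.11 (SE 0.079, adjusted p = 0.487). Half-lives with a constant floor were 1.81 h in YBX1-/- (1.2 to 2.1) and 2.26 h in WT (1.64 to 2.68), with overlapping ranges. The straight line gave 5.48 h and 3.48 h, the other order.

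Asns, asparagine synthetase, kept more of its label than Atf4 at 3 h, with 52.0% in YBX1-/- and 71.7% in WT. With the 0 h libraries left out of the early mean the shares were 72.9% and 69.2%, so their order between the genotypes turned. Its rate in YBX1-/- was 50.0%, 21.8%, 23.5%, 16.5%, 10.9%, 1.65%, 1.62% and 0.267% from 0 to 24 h. In WT it was 37.4%, 39.8%, 43.4%, 28.8%, 13.2%, 0%, 1.3% and 0%. YBX1-/- was lower at the 4 times from 0.5 to 6 h and higher at 0 h and from 12 h on, where WT was listed at 0 at 12 and 24 h. At 6 h it kept 34.4% of its early rate in YBX1-/- and 32.9% in WT, above the median gene with 14.7% and 22.8%. The decay rate difference was 0.09 log2 per h (SE 0.063; limma, adjusted p = 0.624). Over 0 to 12 h it was 0.36 (SE 0.090, adjusted p = 0.0597), with the WT value of 0 at 12 h as the last point, and over 0 to 6 h it was 0.08 (SE 0.13, adjusted p = 0.765). The half-life with a constant floor in YBX1-/-, 0.686 h, depended on single times (0.347 to 4.36), while WT had 3.88 h (3.33 to 4.37). The straight line gave 3.77 h and 2.66 h.

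Trib3, a pseudokinase that restrains ATF4 and CHOP in feedback, had uneven rates. In YBX1-/- they were 18.8%, 32.2%, 28.3%, 7.69%, 1.56%, 4.55%, 0% and 1.48%, and in WT 30.5%, 37.0%, 41.2%, 1.27%, 21.7%, 10.0%, 0% and 0%. WT was at 1.27% at 3 h and above it again at 6 and 12 h, so no single half-life describes it. The constant-floor fits ran from 1.18 to 3.12 h in YBX1-/- and from 1.05 to 6.06 h in WT with each time left out, and the straight line gave 4.18 h and 2.83 h. The decay rate difference was 0.09 log2 per h (SE 0.082; limma, adjusted p = 0.702) and the level difference 0.37 log2 (SE 0.71, adjusted p = 0.927).

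Chac1, which degrades glutathione, and Sesn2, which restrains mTORC1, had low rates at 3 h, on thin coverage (1.63 and 4.30 CPM). For Chac1 in WT the value at 3 h is a listed 0, which can mean no reads. Chac1 had 0%, 25%, 26.5% and 3.03% at 0, 0.5, 1 and 3 h in YBX1-/- and was listed at 0 from 6 h on. In WT it had 40%, 53.3% and 35.7% and was listed at 0 from 3 h on. The 0 at the start in YBX1-/- is from the library that differs from its neighbours. Sesn2 had 29.2%, 37.9%, 17.7%, 8.08% and 2.17% up to 6 h in YBX1-/-, then 0%, 0% and 1.73%. In WT it had 39.1%, 27.3%, 43.3% and 2.86% up to 3 h and was listed at 0 after that. At 3 h Chac1 kept 17.7% of its early rate in YBX1-/- (11.8% with the 0 h libraries left out), and Sesn2 kept 28.6% there and 7.81% in WT. Both were below the median gene in both genotypes.

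Ddit4 and Ppp1r15a were the thinnest covered of the 10. Ddit4 encodes REDD1, an inhibitor of mTORC1. Its rates were 40%, 23.5%, 20.0%, 11.8%, 0%, 0%, 7.69% and 2.08% in YBX1-/- and 41.9%, 20.8%, 7.69%, 23.8%, 6.67%, 0%, 0% and 0% in WT. Ppp1r15a encodes GADD34, the subunit that brings a phosphatase to eIF2 and ends the response. It had 50.0%, 25% and 8.33% in YBX1-/- and was listed at 0 from 3 h on. In WT it had 42.9%, 12.5%, 20.0%, 42.9%, 25% and 50.0% up to 12 h and then 0%. With 0.321 CPM the WT values do not describe a course, and no difference was read from them. In a fit over all 13423 genes with a rate above 0 in at least 1 library, the smallest adjusted p for a decay or level difference of the 4 members below the limit was 0.938 (limma, level difference of Ppp1r15a, -2.81 log2, SE 1.27).

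**Figure D2:**
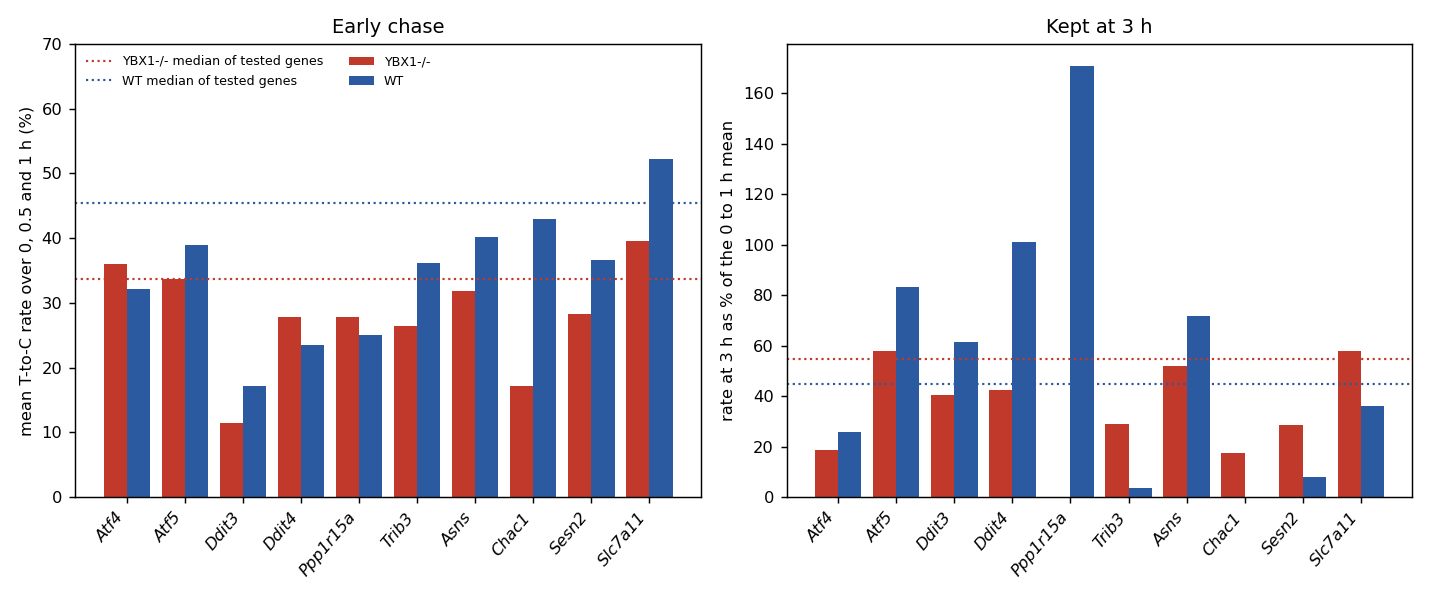
Left, mean T-to-C rate over 0, 0.5 and 1 h in percent, and right, the rate at 3 h as a percentage of that mean, for the 10 genes (x), with YBX1-/- as red bars left of WT as blue bars and dotted lines for the medians of the tested genes. Ddit3 has the lowest early rates, 11.5% and 17.1%, and Atf4, Trib3, Chac1 and Sesn2 lie under both medians at 3 h. Of these, Chac1 (1.63 CPM), Trib3 (2.78) and Sesn2 (4.30) are thinly covered, and Chac1 in WT is listed at 0 at 3 h. The bars of Ddit4 and Ppp1r15a in WT (101% and 171%) also rest on thin coverage.

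Across the 6 tested members, label fell over the chase in 6 of 6 in YBX1-/- and in 6 of 6 in WT (limma, slope over hours, adjusted p from 0.000192 to 0.0103 in YBX1-/- and from 8.44e-06 to 0.0111 in WT). This was so for 92.6% and 94.7% of all tested genes. The median slope of the members was -0.21 log2 per h in YBX1-/- and -0.29 in WT, against -0.25 and -0.27 for all tested genes. Trib3 did not pass over 0 to 12 h (adjusted p = 0.0993 in YBX1-/- and 0.412 in WT), nor did Ddit3 (0.108) and Trib3 (0.366) in WT over 0 to 6 h. Over that early window Atf4 fell by 0.68 log2 per h in YBX1-/- (SE 0.11, adjusted p = 0.000392) and by 0.54 in WT (SE 0.11, adjusted p = 0.00215). The median gene fell by 0.47 and 0.39. Slc7a11 fell by 0.69 in YBX1-/- (SE 0.080) and 0.48 in WT (SE 0.080), and Trib3 by 0.69 (SE 0.29) and 0.28 (SE 0.29). Ddit3 fell by 0.50 and 0.29, Atf5 by 0.38 and 0.32, and Asns by 0.28 and 0.27.

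No member passed for a difference between the genotypes (limma, Benjamini-Hochberg over 7411 genes). For the decay rate difference 0 of 6 passed, against 0.108% of all tested genes, and 1 of 6 had an unadjusted p under the threshold, against 12.5%. The differences were positive in Atf5, Trib3, Asns and Slc7a11 and negative in Atf4 and Ddit3, from -0.09 to 0.09 log2 per h, with a median of 0.07 against 0.00 over all tested genes. For the labelling level 0 of 6 passed, as of all tested genes (0.0%), and 1 of 6 had an unadjusted p under the threshold, against 5.6%. The level differences of Atf4 (0.19, SE 0.23), Atf5 (0.12, SE 0.61), Asns (0.84, SE 0.57) and Slc7a11 (0.54, SE 0.37) had adjusted p from 0.779 to 0.979. Single times moved these values: Asns had 0.32 without 12 h, Slc7a11 0.19 without 18 h and Atf4 0.06 without 0 h. Without subtraction of the library medians, which shifts the median gene to -0.34, the sign of Atf4 turned to -0.16 and that of Atf5 to -0.23. Tests of this kind use the scatter between times of 1 library each, and a p that misses the threshold does not show that the genotypes act alike.

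**Figure D3:**
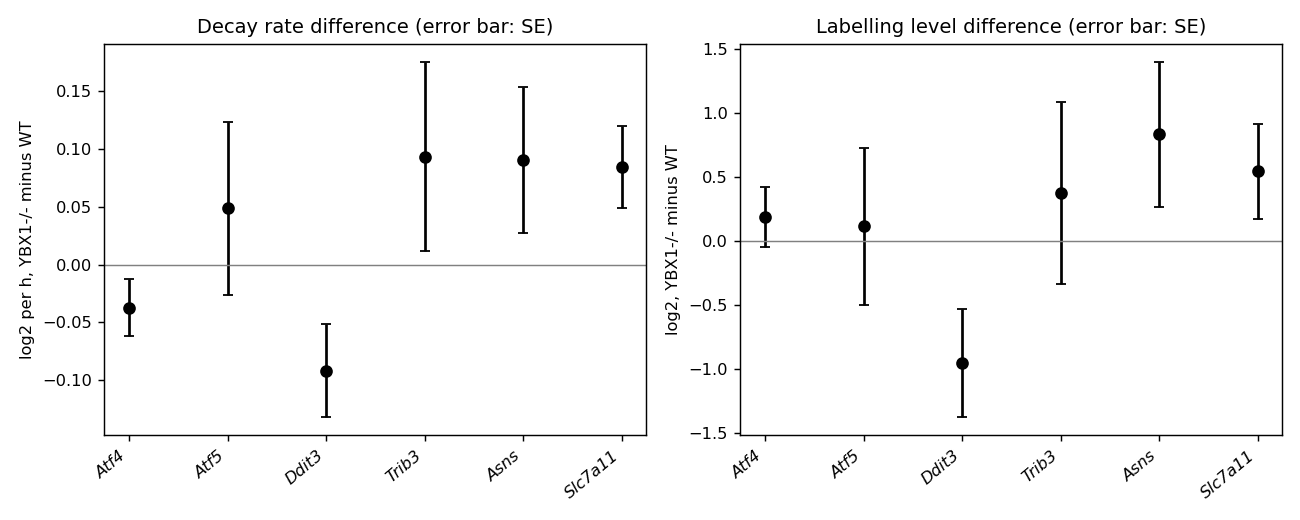
Left, decay rate difference in log2 per h, and right, labelling level difference in log2, both YBX1-/- minus WT, for the 6 tested members (x), with the SE of the limma fit as error bars and a line at 0. Ddit3 is the lowest in both panels, at -0.09 and -0.95, and no point passed after adjustment over all tested genes.

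**Figure D4:**
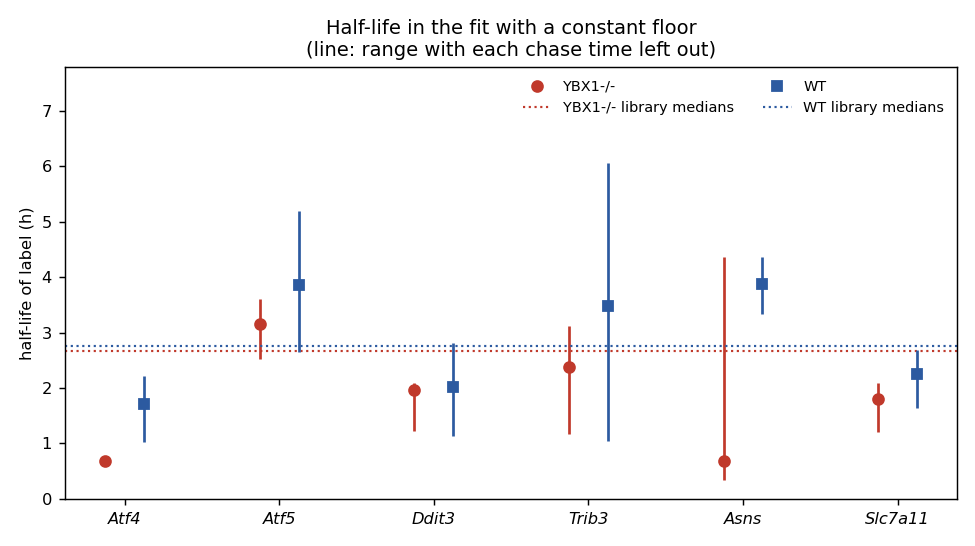
Half-life of label in hours (y) from the fit with a constant floor for the 6 tested members (x), with YBX1-/- as red circles left of WT as blue squares, vertical lines for the range with each chase time left out, and dotted lines for the library medians. Atf4 has the shortest WT half-life, 1.71 h, and is the one member whose ranges do not overlap between the genotypes.

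Over the 16 libraries, centred rates of the 15 pairs had Pearson correlations from -0.482 (Ddit3 and Asns) to 0.612 (Atf4 and Ddit3), with a median of -0.201. These points share libraries and the subtraction of the same medians, no value for other gene pairs was set beside them, and no test was made. The 5 genes whose centred rates were most like those of Atf4 were Zup1 (r = 0.906), Nrros (0.880), Sertad2 (0.875), Rsrp1 (0.871) and Zfp62 (0.859). For Ddit3 they were Adcy7 (0.930) and Rab29 (0.922), for Slc7a11 Ythdf3 (0.861) and Mtm1 (0.844), for Atf5 Slc25a11 (0.916) and Bzw2 (0.912), for Asns Gria3 (0.958) and Wdr46 (0.948), and for Trib3 Pigu (0.875) and Ppard (0.868). These genes were picked for the highest r among all tested genes, predicted genes left out, so a high r follows in part from the choice. Shared regulation was not tested.

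Other genes around the pathway gave 1 call for the decay rate difference. Of the kinases and factors of eIF2 regulation, 14 were tested and 0 passed; Eif2s3x, a subunit of eIF2, came closest, with 0.15 log2 per h (SE 0.022; limma, adjusted p = 0.055) and rates of 6.67% and 6.12% at 12 and 18 h in YBX1-/- against 1.56% and 1.68% in WT. It kept its sign in 18 of 18 alternatives and passed in 4, among them 0 to 12 h (adjusted p = 0.0423), with adjusted p from 0.0213 to 0.965. Eif2a (-0.06) and Ppp1r15b (0.11) followed it. Of the bZIP partners of ATF4, 0 of 14 passed, and Atf2 had -0.15 (SE 0.041, adjusted p = 0.183), Mafg -0.05 and Cebpg 0.03. Of 11 further targets of amino acid supply 1 passed, Mthfd1l of mitochondrial folate metabolism, with slower loss in YBX1-/- (0.16, SE 0.021, adjusted p = 0.0462), where 0.108% of all tested genes passed. Mthfd1l kept its sign in 18 of 18 alternatives but passed in 5, with adjusted p from 0.0213 to 0.965, and did not pass without the YBX1-/- 0 h library (adjusted p = 0.162). Shmt2 (0.08) and Psph (-0.05) of that list did not pass. Of 13 genes of tRNA charging 0 passed, 10 had a positive difference, as had 52.4% of all tested genes, and the median was 0.07, with Wars (0.18, SE 0.052, adjusted p = 0.188), Gars (0.15, SE 0.046, 0.234) and Yars (0.14, SE 0.048, 0.278) at the smallest p. Of 12 targets in signalling and redox 0 passed, with Gadd45a at -0.12 (SE 0.076, adjusted p = 0.59), Cpeb4 at 0.07 and Bcl2l11 at 0.04. Of 15 genes of the unfolded protein response outside the PERK arm 0 passed, with 11 positive, among them Creld2 (0.14, SE 0.039, adjusted p = 0.188) and Dnajb9 (0.14, SE 0.049, 0.267), while Sel1l was negative (-0.06, SE 0.023, 0.317). In the remaining lists, differences were positive in 8 of 14 genes of eIF2 regulation and 5 of 14 bZIP partners. They were positive in 7 of 11 genes of amino acid supply and 8 of 12 of signalling and redox. At 24 h WT was listed at 0 in Eif2s3x, Ppp1r15b, Mthfd1l, Shmt2, Wars, Gars, Yars, Creld2, Dnajb9 and Cpeb4. YBX1-/- was listed at 0 at that time in Atf2, Gadd45a and Cpeb4. Wars and Gars were also at 0 at 18 h in WT. At 0 h in YBX1-/- Wars had 6.9% and Yars 10.5%. Without 24 h the difference was 0.14 for Eif2s3x and 0.16 for Mthfd1l. For the other genes the part of these values was not tested. None of the pathway lists had a gene past the threshold for the labelling level, and no gene did among all 7411 tested (0.0%).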

How the data were processed

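T-to-C rates were deposited by the authors as a fraction from 0 to 1 per interval and library, and were put on a percent scale. The table also held the authors' mean CPM, mean coverage signal on Ts, T content and interval length. CASAVA, HISAT2 2.1.0 and the human build GRCh38 were named in the submitters' processing notes; the program, strand setting and denominator of the rate are not given in the sources used here. For each of 21089 genes whose interval lay in 1 exon, the T count of the GENCODE M21 transcript (GRCm38) equalled the deposited one, so coordinates and strand are those of GRCm38. Gene symbols were matched for 21148 of 21177 identifiers.

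Values were log2(rate + 0.1 percentage points), which shrinks differences near 0. In R 4.3.3, limma 3.58.1 with its trend option gave the slope over hours per genotype, the decay rate difference (genotype by hours, chase time as a factor, library median subtracted) and the labelling level difference (genotype term), adjusted by Benjamini-Hochberg over all 7411 tested genes at 0.05. With 1 library per genotype and time, p-values measure scatter between times, not between animals or cultures. Half-lives came from the slopes and from least squares with a constant floor (Python 3.11.15). Intervals of like length were those from 0.8 to 1.25 times as long. The fits were tested on simulated data. The members, lists, tests and alternatives were chosen with earlier results of these data known. Named genes were the 10 members, the genes of most similar course (Pearson r, 5 for Atf4 and 2 for each other tested member, predicted genes left out), up to 3 genes per pathway list by the smallest p of the decay rate difference, Ybx1, and Mars, chosen after its overlap with Ddit3 was seen. Pseudocounts, filters, interval choice, centring, windows and left-out times were varied; the early mean without 0 h was added after the data were seen.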

Additional observations from a re-analysis of the deposited data

How the results depend on the processing

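Over the alternatives run, the 4 measures of the 6 tested members kept direction and side of the threshold in 105 of 111 cases for the decay rate difference, 102 of 111 for the level, 98 of 105 for loss in YBX1-/- and 96 of 105 for loss in WT. The rest were sign changes (6, 9, 4 and 2) and losses of the call (0, 0, 3 and 7). No genotype difference of a member passed in any alternative, and the lowest adjusted p was 0.0597 (Asns, decay, 0 to 12 h). Ddit3 kept its sign in all of them for both differences, from -0.41 to -1.30 for the level (adjusted p 0.303 to 0.96) and from -0.06 to -0.14 for decay (0.197 to 0.965). Without the YBX1-/- 0 h library its level difference was -1.02 and its decay difference -0.10.

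The decay rate difference turned in sign over 0 to 12 h for Atf5 (-0.064) and Trib3 (-0.13), over 0 to 6 h for Trib3 (-0.31) and Slc7a11 (-0.11), and without 24 h for Atf5 (-0.16) and Trib3 (-0.052), whose ranges with each time left out reached 0.14 and 0.13. The level difference turned for Atf5 with a pseudocount of 0.5 (-0.077), over 0 to 12 h (-0.012), without 24 h (-0.45) and without centring (-0.23), for Trib3 over 0 to 12 h (-0.15), 0 to 6 h (-0.020) and without 24 h (-0.16), for Slc7a11 over 0 to 6 h (-0.057) and for Atf4 without centring (-0.16). With each time left out the level reached 0.57 for Atf5 and 0.80 for Trib3. With the library median subtracted, slopes turned in YBX1-/- for Atf4 (0.063), Atf5 (0.012), Ddit3 (0.035) and Slc7a11 (0.055) and in WT for Atf4 (0.10) and Ddit3 (0.13), which then state loss relative to the typical gene. The cause of the other changes was not tested.

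Over all genes, the decay rate difference called 8, against 1 with a pseudocount of 0.01 or 0.5, 0 with every gene above 0 in at least 1 library, 268 over 0 to 12 h, 0 over 0 to 6 h, 0 without the YBX1-/- 0 h library, 13 without chase time as a factor, and 0 to 204 with each time left out (0 without 0 or 0.5 h, 1 without 1 or 3 h, 3 without 6 h, 204 without 12 h, 91 without 18 h, 2 without 24 h). The level called 0, and 2 with every gene above 0 in at least 1 library. Loss of label was called in 2805 genes in either genotype when all 16 libraries had to be above 0, since fewer genes were tested, and, with the library median subtracted, in 193 in YBX1-/- and 373 in WT (both directions). The half-lives with a constant floor differed from the straight line beyond its SE in YBX1-/- for Atf4 (0.683 h), Atf5 (3.15 h), Ddit3 (1.97 h), Trib3 (2.38 h), Asns (0.686 h) and Slc7a11 (1.81 h), and in WT for Atf4 (1.71 h), Ddit3 (2.02 h), Asns (3.88 h) and Slc7a11 (2.26 h). The genotypes were already matched by chase time in the fits of the differences and in the permutation test. No pairing beyond chase time was possible, because the labels give no replicate number and each group has 1 library. Unknown depth limits the rates of members under 5 CPM most.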
